A study of Mus musculus with 7 samples.

Results

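The genes described here are mainly the clustered genes for the 5 types of histone, H1, H2A, H2B, H3 and H4, in mouse embryonic fibroblasts (MEFs) on the way to induced cardiomyocytes. They were chosen by name alone, as every probe set whose gene symbol begins with H1f, H2ac, H2bc, H3c or H4c. That gave 57 probe sets for 57 genes, out of 19572 probe sets with a single gene symbol. There were 8 genes for H1, 13 for H2A, 15 for H2B, 10 for H3 and 11 for H4. Of the 57, 46 lie on chromosome 13, 8 on chromosome 3, 2 on chromosome 6 and 1 on chromosome 15, in the RefSeq gene table. H1f8 and H1f10, on chromosome 6, and H1f7, on chromosome 15, lie outside the clusters. They are counted with the clustered genes here because the choice went by name.

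Core histones H2A, H2B, H3 and H4 form the spool around which DNA is wound, and the linker histone H1 binds where DNA enters and leaves it. Most clustered histone genes are replication-dependent: they are transcribed in S phase, when new DNA must be packed, and their mRNAs end in a stem-loop rather than a poly(A) tail. NPAT carries the cell cycle signal to their promoters, and the stem-loop binding protein, encoded by Slbp, carries their mRNAs through processing and translation. A few members differ. H1f10 is a replication-independent linker histone, H1f6, H1f7 and H1f8 are linker histones of the germ line, and H2ac1 and H2bc1 encode H2A and H2B forms of the testis. In mouse, H1f2, H2bc4 and H2bc21 are known to give polyadenylated mRNA as well, in cells that have left the cycle. The ends of mRNAs were not measured here, so a part of polyadenylation in the values below was not tested.

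The 7 samples were profiled on the Clariom S mouse array, and each was the only one of its group, so no difference below has a replicate check and none has a p-value. The array called siEp300 is of fibroblasts given a small interfering RNA against Ep300, which encodes the histone acetyltransferase p300, and siCtrl is of fibroblasts given a control siRNA. Per the labels both also received retroviruses for Gata4, Tbx5 and a form of Mef2c, but their titles name isoform 2 and their source names name the fusion described next. GT/M2TAD cells received Gata4, Tbx5 and Mef2c isoform 2 fused to MyoD's transactivation domain. GT/M6, GT/M2 and GT/M1 cells received Gata4 and Tbx5 with Mef2c isoform 6, 2 or 1. Transduced cells were collected after 1 week. MEF is the array of untreated fibroblasts. It carried no virus and its time of harvest was not given, so the factors, infection and time in culture cannot be told apart in any difference from it. The sources used here give neither the strain nor the age of the embryos.

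The values are log2 signals, on which a difference of 1 is 2-fold. A probe set is called 2-fold lower or higher when its log2 difference is at least 1 and the higher of its signals reaches that array's median over named probe sets, which lay between 5.37 and 5.70. As a gauge of background, 95% of negative-control probes lay under 8.43 to 9.33, depending on the array. Of the 57 members, 47 reached that gauge on MEF, 20 reached it on all 7 arrays and 10 on none. Below it a signal is partly background, and a difference that ends there is of uncertain size. Signals of different probe sets were not compared with each other.

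Labels were checked on the transduced and targeted genes. Tbx5 had 14.82 to 16.23 on the 6 transduced arrays, against 5.72 on MEF, and Mef2c had 18.32 to 18.87, against 8.24. Ep300 had 9.47 on siEp300, against 9.90 on siCtrl and 9.87 to 10.22 on the other 5 arrays, so siEp300 differed from siCtrl by -0.43, which is under 2-fold. The fibroblast markers Col1a1 and Vim had 15.51 and 19.04 on MEF. All 4 cardiac markers (Tnnt2, Actc1, Myl7 and Ryr2) were 2-fold higher than MEF on each transduced array, and none of the 7 macrophage, endothelial and epithelial markers reached the array median anywhere. Of the 5 fibroblast markers measured, 0 were 2-fold lower than MEF on siEp300 and siCtrl, 3 on GT/M2TAD and 4 on each of GT/M6, GT/M2 and GT/M1. The fibroblast marker Thy1 was 2-fold higher than MEF on GT/M2TAD, by 1.66.

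Upstream sequences were taken from RefSeq promoter windows on the GRCm38.p6 build, which matched 52 of the 57 members. H2bc21, H2bc4, H3c1, H3c7 and H4c14 had no entry. Each run below ends at the base before the annotated start and is written 5′ to 3′ on the gene's own strand. Capitals mark the CCAAT box (CCAAT, or ATTGG on the other strand), the TATA box (TATAAA), the octamer known from H2B promoters (ATTTGCAT, or ATGCAAAT on the other strand) and the H1 box known from H1 promoters (AAACACA). The H1 box was added to the search after the signals had been seen. The 4 H1 sequences are shown because H1f2 behaved differently from H1f1, H1f3 and H1f5 on the arrays, and all lie on chromosome 13.
H1f2, chr13:23738682-23738806, plus strand: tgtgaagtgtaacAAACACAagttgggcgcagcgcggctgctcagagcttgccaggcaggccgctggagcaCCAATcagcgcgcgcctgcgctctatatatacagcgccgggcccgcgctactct
H1f1, chr13:23763543-23763667, plus strand: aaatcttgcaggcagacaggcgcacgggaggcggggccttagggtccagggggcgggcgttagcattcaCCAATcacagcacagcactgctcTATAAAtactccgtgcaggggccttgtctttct
H1f3, chr13:23554907-23555031, plus strand: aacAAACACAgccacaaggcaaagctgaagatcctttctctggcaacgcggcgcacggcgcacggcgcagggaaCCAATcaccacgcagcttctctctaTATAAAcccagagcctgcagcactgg
H1f5, chr13:21780626-21780750, minus strand: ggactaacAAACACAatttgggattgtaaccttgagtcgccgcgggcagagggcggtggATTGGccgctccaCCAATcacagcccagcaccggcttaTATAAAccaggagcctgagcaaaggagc

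The 4 core histone sequences are 1 example each, and the motif counts by type follow them. H2ac6 stands for the head-to-head gene pairs, since its upstream region runs towards its neighbour H2bc4, the only member that was called 2-fold higher than MEF on any array. H2bc14, H3c10 and H4c4 stand for H2B, H3 and H4 members that were lower on every transduced array.
H2ac6, chr13:23683960-23684199, minus strand: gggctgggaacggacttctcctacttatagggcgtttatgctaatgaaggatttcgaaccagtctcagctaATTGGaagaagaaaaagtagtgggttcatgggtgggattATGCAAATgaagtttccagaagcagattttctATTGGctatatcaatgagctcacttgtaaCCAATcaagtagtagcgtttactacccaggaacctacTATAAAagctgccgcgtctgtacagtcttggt
H2bc14, chr13:21721934-21722043, plus strand: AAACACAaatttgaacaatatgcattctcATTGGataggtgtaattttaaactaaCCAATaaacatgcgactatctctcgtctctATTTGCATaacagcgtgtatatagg
H3c10, chr13:21717518-21717627, plus strand: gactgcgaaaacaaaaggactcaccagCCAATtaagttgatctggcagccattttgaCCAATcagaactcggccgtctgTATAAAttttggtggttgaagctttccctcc
H4c4, chr13:23581458-23581567, plus strand: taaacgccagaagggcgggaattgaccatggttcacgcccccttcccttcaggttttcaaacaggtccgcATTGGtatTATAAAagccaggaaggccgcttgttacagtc

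Each motif was counted on both strands of the window of 300 bases, from 250 before the start to 50 after it, and overlapping matches count for each motif. Windows of head-to-head neighbours can overlap, so a site can count for both genes, and the H2A and H2B counts are not separate. Among all 32851 windows of the table, 37.4% held CCAAT. It was present in 6 of 8 H1 windows, 13 of 13 for H2A, 13 of 13 for H2B, 8 of 8 for H3 and 3 of 10 for H4. TATAAA was present in 13.6% of all windows, against 3 of 8 for H1, 9 of 13 for H2A, 7 of 13 for H2B, 2 of 8 for H3 and 7 of 10 for H4. The octamer was present in 1.74% of all windows. It occurred in 6 of 13 H2B windows, each time as ATTTGCAT, and in 6 of 13 H2A windows, each time on the other strand. No H1, H3 or H4 window held it. For H2ac1 and H2bc1, H2ac8 and H2bc8, and H2ac12 and H2bc12 it is the same site, read from either gene. AAACACA occurred in 7.18% of all windows, against 4 of 8 for H1, 2 of 13 for H2A, 2 of 13 for H2B and none for H3 and H4. H1f2 held CCAAT and AAACACA in its window but not TATAAA. Only exact matches were counted, and the printed H1f2 run holds the stretch tatatata, which such a search passes over. The windows of H1f1, H1f3 and H1f5 each held TATAAA. It was absent from the H1f10 window and from most H3 windows. A part of TATAAA in the signals was not tested.

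On every transduced array most clustered histone genes had lower signals than on MEF. The median log2 difference over the 57 members was -4.23 on siEp300, -4.91 on siCtrl, -3.87 on GT/M2TAD, -2.95 on GT/M6, -2.30 on GT/M2 and -2.76 on GT/M1. Over all named probe sets the median difference from MEF lay between 0.012 and 0.12. Because these are bulk samples, fewer cells in S phase and less histone mRNA per cell cannot be told apart. The 6 differences also share the MEF array, and a departure of that array would enter all of them.

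Counted by the size rule, 49 of 57 members were 2-fold lower than MEF on siEp300, where 9.27% of all named probe sets were. On siCtrl 49 members were 2-fold lower, against 10.8% of named probe sets. On GT/M2TAD the count was 48, against 9.48%. It was 46 on GT/M6, against 8.78%, 45 on GT/M2, against 8.33%, and 45 on GT/M1, against 9.5%. In the other direction 1 member, H2bc4, was 2-fold higher on each array but siCtrl, where 0 were. After the array medians were aligned that call held only on GT/M2TAD, with differences of 0.87 on siEp300, 0.80 on GT/M6, 0.79 on GT/M2 and 0.74 on GT/M1, and after quantile normalization siEp300 had 0.94. The background shares for higher signals were 13.4% on siEp300, 10.9% on siCtrl, 14.0% on GT/M2TAD, 13.0% on GT/M6, 13.5% on GT/M2 and 12.5% on GT/M1.

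Strong signals on MEF leave more room for a lower value elsewhere, so members were also set beside other strongly detected probe sets. Of the 3638 named probe sets with a MEF signal of at least 10, between 23.2% and 29.1% were 2-fold lower, depending on the transduced array. Of the 42 members among them, 41 were 2-fold lower on each of the 6 arrays, and H2bc4 was the exception. The cut was made on MEF, which is also the reference of every difference. Apart from H2bc4, every member that was not lower on all 6 arrays fell below the cut. The larger share of lower members here is therefore no added support. When every value under 9.33 was raised to 9.33, an alternative chosen after seeing the data, 41 of the 57 members were still 2-fold lower on each array, and the medians lay between -3.64 and -2.23.

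**Figure D1:**
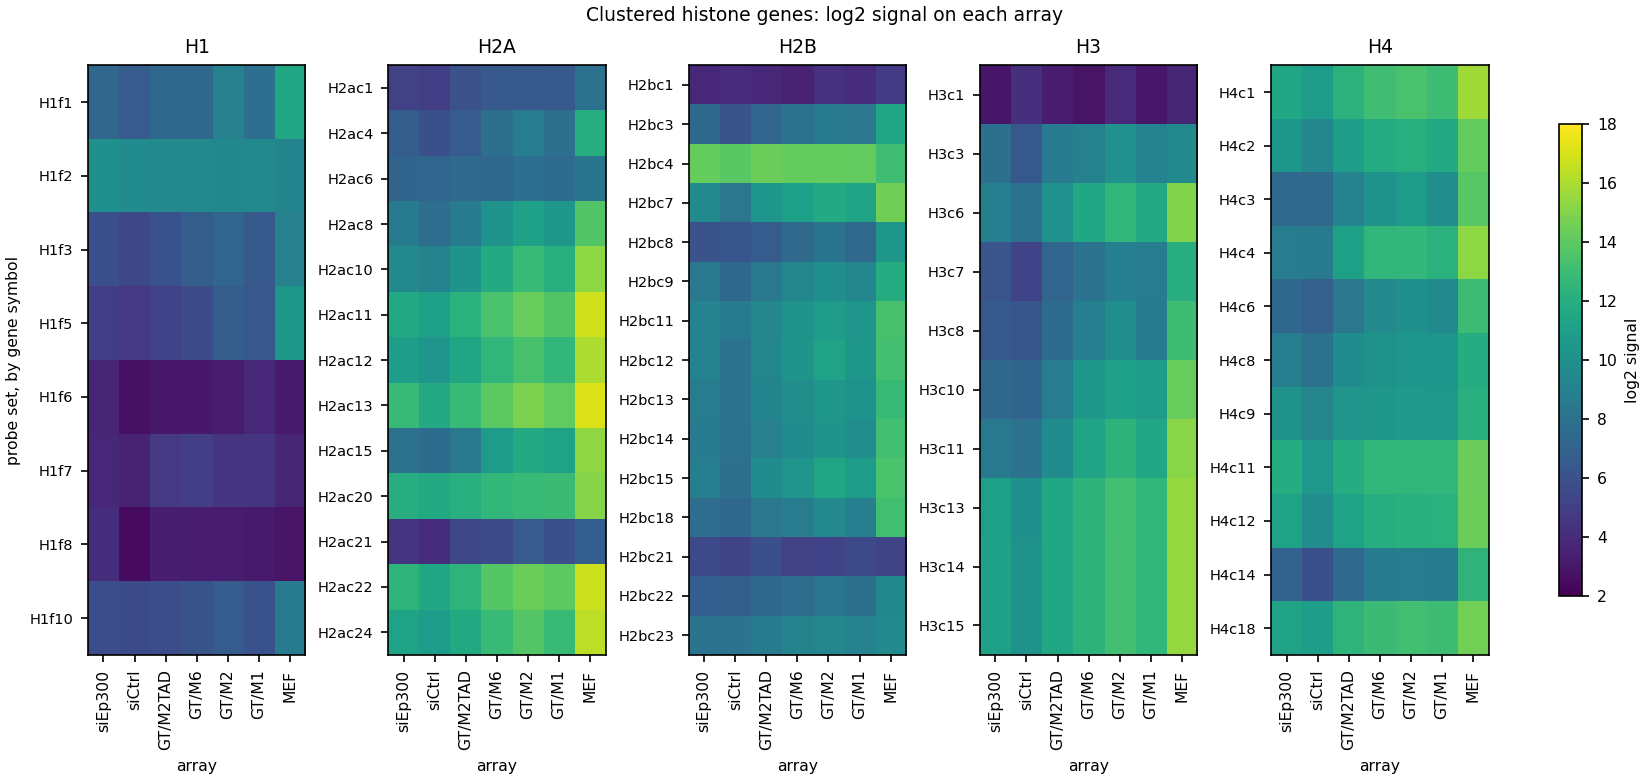
Heat maps of the log2 signal of each of the 57 members, grouped by histone type, with 1 row per probe set and 1 column per array in the order siEp300, siCtrl, GT/M2TAD, GT/M6, GT/M2, GT/M1 and MEF. The MEF column is the brightest in 49 rows, and the rows of H2bc4 and H1f2 are nearly even across the columns.

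Members moved together, with few exceptions. MEF had the highest of the 7 signals for 49 of 57 members. Among the 6 transduced arrays siCtrl had the lowest signal for 48 members and GT/M2 the highest for 45. Across the 57, 45 were 2-fold lower than MEF on all 6 arrays and 8 on none. Those 8 were H1f2, H1f6, H1f7, H1f8, H2bc1, H2bc21, H2bc4 and H3c1. H2ac21, H2ac6, H2bc23 and H3c3 were 2-fold lower on some arrays only.

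Histone H1 was split. Its somatic members H1f1, H1f3 and H1f5 and the replication-independent H1f10 were 2-fold lower than MEF on all 6 arrays, and the other 4 were not 2-fold lower on any. The median difference of the 8 members therefore lay only between -1.69 on siCtrl and -0.84 on GT/M2. With values under 9.33 raised that median was 0 on all 6 arrays, and 2 members in place of 4 were 2-fold lower, since the differences of H1f3 and H1f10 became 0. H1f5 had 4.97 on siEp300, 4.67 on siCtrl, 5.25 on GT/M2TAD, 5.63 on GT/M6, 6.72 on GT/M2 and 6.32 on GT/M1, against 10.49 on MEF. Every transduced value of H1f5 lay under the background gauge, so its mean difference of -4.51 over the 4 arrays without siRNA has background on its lower side. H1f1 had 7.25 on siEp300, 6.60 on siCtrl, 7.34 on GT/M2TAD, 7.37 on GT/M6, 8.99 on GT/M2 and 7.82 on GT/M1, against 11.51 on MEF. GT/M2 stood above the other transduced arrays for H1f1 and was the only one of them to reach the background gauge. H1f3 had 5.93 on siEp300, 5.48 on siCtrl, 6.00 on GT/M2TAD, 6.74 on GT/M6, 7.20 on GT/M2 and 6.47 on GT/M1, against 8.96 on MEF. Its 6 transduced values lay under the background gauge. H1f10 had 5.82 on siEp300, 5.57 on siCtrl, 5.85 on GT/M2TAD, 6.14 on GT/M6, 6.64 on GT/M2 and 6.00 on GT/M1, against 8.51 on MEF, and reached the background gauge on no array.

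H1f2 differed from the other somatic linker histone genes H1f1, H1f3 and H1f5. Its signal was 10.06 on siEp300, 9.73 on siCtrl, 9.64 on GT/M2TAD, 9.52 on GT/M6, 9.48 on GT/M2 and 9.58 on GT/M1, against 9.25 on MEF. All 6 transduced values lay above the MEF value, by 0.23 to 0.81, none by 2-fold, and all 7 lay above the background gauge. On GT/M2 and GT/M6 the excess was smaller than the gap between array medians, at 5.69 and 5.70 against 5.37 on MEF. With array medians aligned, H1f2 would not lie above MEF on either of these arrays. The germ line members had low signals throughout. H1f6 had 2.72 to 3.81 on the transduced arrays, against 3.16 on MEF, H1f7 had 3.62 to 4.95, against 3.64, and H1f8 had 2.46 to 4.08, against 2.85. None of these reached an array median, so no difference was read from them.

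**Figure D2:**
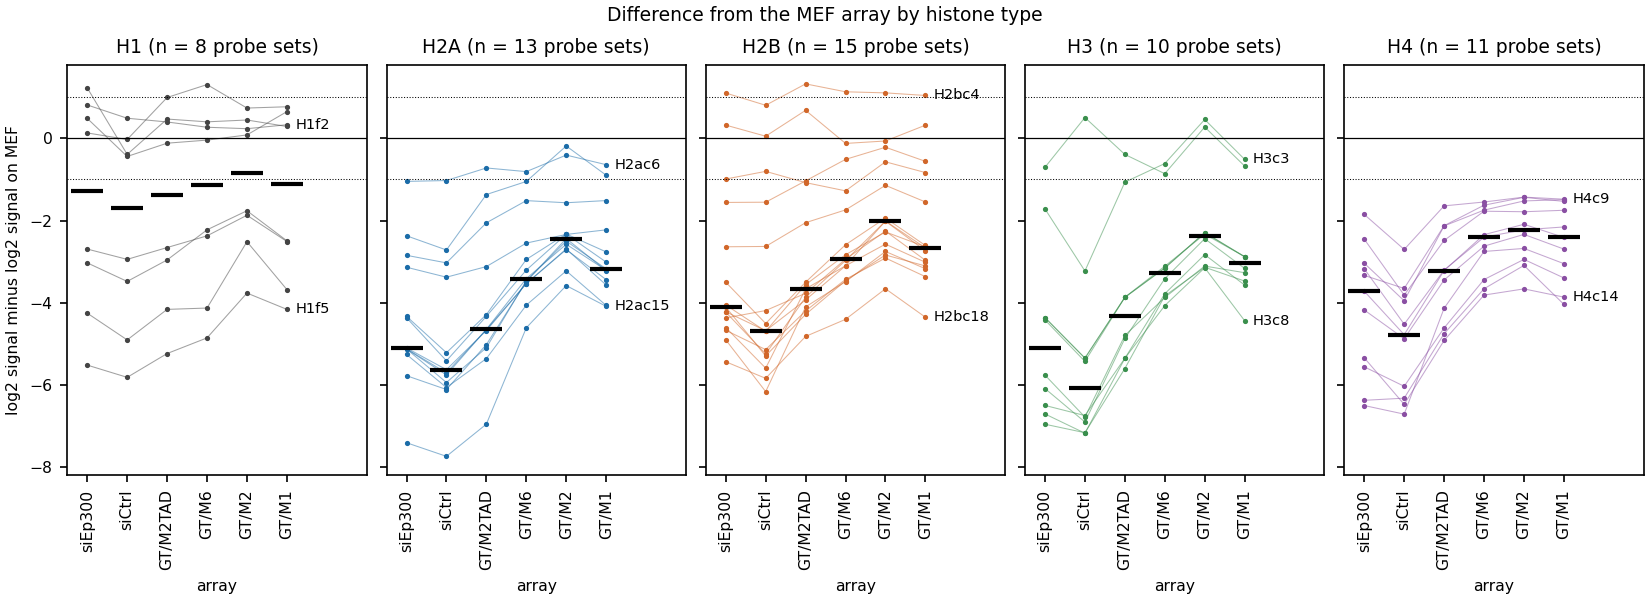
Log2 signal of each transduced array minus MEF for every member, in 1 panel per histone type, with thin lines joining the points of a probe set, black bars at the type median and dotted lines at 2-fold. Named lines have the lowest and the highest mean difference of their type among members that reached an array median. H2bc4 is the only line above the upper dotted line among members that reached an array median, and siCtrl has the lowest type median in all 5 panels.

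Histone H2A had 13 of 13 members 2-fold lower on siEp300 and siCtrl, 12 on GT/M2TAD and GT/M6, and 11 on GT/M2 and GT/M1. The type's median difference from MEF was -5.10 on siEp300, -5.63 on siCtrl, -4.65 on GT/M2TAD, -3.41 on GT/M6, -2.44 on GT/M2 and -3.18 on GT/M1. H2ac15 showed the largest difference. It had 7.96 on siEp300, 7.63 on siCtrl, 8.41 on GT/M2TAD, 10.76 on GT/M6, 11.79 on GT/M2 and 11.28 on GT/M1, against 15.37 on MEF. The 3 arrays with siRNA or the fusion lay under the background gauge for H2ac15, and the 3 isoform arrays lay well over it. H2ac13 had 12.82 on siEp300, 11.77 on siCtrl, 12.85 on GT/M2TAD, 13.98 on GT/M6, 14.85 on GT/M2 and 14.17 on GT/M1, against 17.19 on MEF. All 7 values of H2ac13 lay above the gauge, and its mean difference over the 4 arrays without siRNA was -3.22.

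H2ac6 and H2ac21 were the H2A members with the smallest mean differences. H2ac6 had 7.18 on siEp300, 7.20 on siCtrl, 7.51 on GT/M2TAD, 7.42 on GT/M6, 7.82 on GT/M2 and 7.59 on GT/M1, against 8.23 on MEF. It passed 2-fold only on the siRNA arrays and lay under the gauge on all 7. H2ac1, the testis form, had 5.15 on siEp300, 4.97 on siCtrl, 5.94 on GT/M2TAD, 6.48 on GT/M6, 6.43 on GT/M2 and 6.48 on GT/M1, against 8.0 on MEF. It also lay under the gauge on all arrays, although each transduced value was 2-fold lower.

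Histone H2B held strongly lower members and the only one called higher. Of 15 members, 12 were 2-fold lower on siEp300, siCtrl and GT/M2TAD, and 11 on GT/M6, GT/M2 and GT/M1. The median difference was -4.11 on siEp300, -4.68 on siCtrl, -3.66 on GT/M2TAD, -2.94 on GT/M6, -2.02 on GT/M2 and -2.67 on GT/M1. H2bc18 had 7.74 on siEp300, 7.34 on siCtrl, 8.36 on GT/M2TAD, 8.78 on GT/M6, 9.52 on GT/M2 and 8.83 on GT/M1, against 13.18 on MEF. Among the transduced values of H2bc18 only that on GT/M2 reached the background gauge. H2bc14, with the octamer shown above, had 8.51 on siEp300, 8.04 on siCtrl, 8.98 on GT/M2TAD, 9.75 on GT/M6, 10.27 on GT/M2 and 9.81 on GT/M1, against 13.18 on MEF.

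H2bc4 went the other way. It had 14.21 on siEp300, 13.91 on siCtrl, 14.43 on GT/M2TAD, 14.24 on GT/M6, 14.22 on GT/M2 and 14.15 on GT/M1, against 13.11 on MEF. The 6 transduced values spanned only 0.52, all above MEF, by 0.80 on siCtrl and by 1.04 to 1.33 on the other 5 arrays. This was the narrowest span of any member across the transduced arrays, and the widest was 4.46, for H3c6. H2bc21 had 5.13 to 5.93 on the transduced arrays, against 5.25 on MEF, and lay under the gauge on all 7. The testis form H2bc1 had 3.56 to 4.27, against 4.84 on MEF, and never reached an array median. H2bc23 had 8.08 on siEp300 and 8.09 on siCtrl, with 8.61 to 9.42 on the other transduced arrays, against 9.64 on MEF.

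Histone H3 had 9 of 10 members 2-fold lower on siEp300, siCtrl and GT/M2TAD and 8 on the isoform arrays. Its median difference was -5.09 on siEp300, -6.09 on siCtrl, -4.33 on GT/M2TAD, -3.29 on GT/M6, -2.39 on GT/M2 and -3.02 on GT/M1. H3c8 had 6.51 on siEp300, 6.26 on siCtrl, 7.65 on GT/M2TAD, 8.94 on GT/M6, 9.86 on GT/M2 and 8.57 on GT/M1, against 13.01 on MEF. Among the transduced values of H3c8 only that on GT/M2 reached the background gauge. H3c10 had 7.35 on siEp300, 7.14 on siCtrl, 8.70 on GT/M2TAD, 10.47 on GT/M6, 11.17 on GT/M2 and 10.83 on GT/M1, against 14.30 on MEF. For both genes the 3 isoform arrays lay above GT/M2TAD, which lay above the siRNA arrays.

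H3c14 had 11.13 on siEp300, 10.14 on siCtrl, 11.62 on GT/M2TAD, 12.33 on GT/M6, 13.19 on GT/M2 and 12.61 on GT/M1, against 15.49 on MEF. H3c15 had exactly the same value on every array, so these 2 rows amount to a single measurement. H3c3 stood apart from the type: it had 7.90 on siEp300, 6.39 on siCtrl, 8.55 on GT/M2TAD, 9.0 on GT/M6, 10.08 on GT/M2 and 9.11 on GT/M1, against 9.62 on MEF. GT/M2 was above MEF for H3c3, and siCtrl was 3.23 below it. H3c1 had 2.84 to 4.21 on the transduced arrays, against 3.70 on MEF, and never reached an array median.

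Histone H4 was the only type with every member 2-fold lower than MEF on every transduced array, 11 of 11. The median difference was -3.72 on siEp300, -4.78 on siCtrl, -3.22 on GT/M2TAD, -2.40 on GT/M6, -2.23 on GT/M2 and -2.41 on GT/M1. H4c14 had 7.06 on siEp300, 5.92 on siCtrl, 7.48 on GT/M2TAD, 8.58 on GT/M6, 8.73 on GT/M2 and 8.53 on GT/M1, against 12.40 on MEF. Every transduced value of H4c14 lay under the background gauge. At the other end H4c9 had 10.16 on siEp300, 9.31 on siCtrl, 10.37 on GT/M2TAD, 10.46 on GT/M6, 10.58 on GT/M2 and 10.53 on GT/M1, against 12.01 on MEF. H4c1 had 11.57 on siEp300, 10.87 on siCtrl, 12.30 on GT/M2TAD, 13.12 on GT/M6, 13.41 on GT/M2 and 13.05 on GT/M1, against 15.75 on MEF. H4c4, with the TATA box shown above, had 8.75 on siEp300, 8.54 on siCtrl, 11.12 on GT/M2TAD, 12.50 on GT/M6, 12.57 on GT/M2 and 12.20 on GT/M1, against 15.25 on MEF. For H4c4 the siRNA arrays lay more than 2-fold below GT/M2TAD.

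How far such members are separate measurements is uncertain, because clustered histone genes are near-identical copies in their coding parts and the positions of the probes were not given. In the gene table, all 11 H4 members and all 10 H3 members list another gene of their type among their synonyms, as do 6 of 15 H2B members, 0 of 13 H2A members and 0 of 8 H1 members. Members of a type may therefore share signal, and a count of members is not a count of independent genes. Leaving out H3c15 changed no count by more than 1.5 times.

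Neighbouring genes were compared because H2A and H2B genes often lie head to head and share the region between them. The pairs were taken by gene order alone, without regard to strand. Of 10 neighbouring pairs, 7 had both genes at least 1 lower than MEF in the mean of the 4 arrays without siRNA. Among these, H2ac4 and H2bc3, at -4.18 and -3.42, both lie on the plus strand and so are not head to head. H2ac11 and H2bc11 were closest, with mean differences of -3.46 and -3.16. H2ac15 and H2bc15 were both lower, by unequal amounts, at -4.81 and -2.86. In the pair H2ac6 and H2bc4, whose shared region is printed above, H2ac6 differed from MEF by -0.65 and H2bc4 by 1.15. In H2ac20 and H2bc21 the mean differences were -2.56 and 0.20. For H2ac1 and H2bc1 they were -1.66 and -0.94. By chromosome, the median of the mean differences was -3.03 over the 46 members on chromosome 13 and -3.05 over the 8 on chromosome 3.

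**Figure D3:**
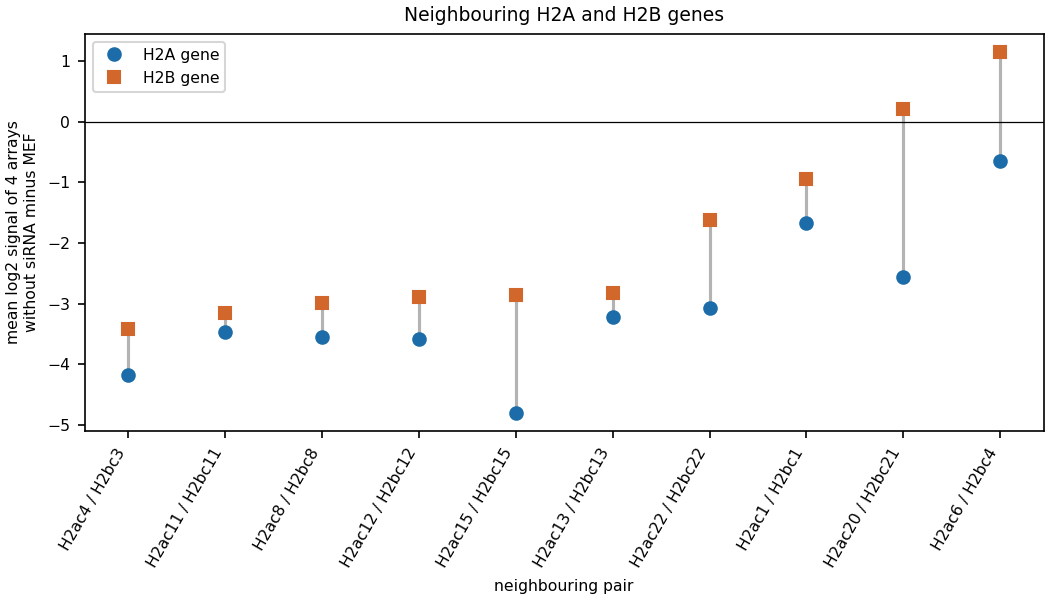
Mean log2 signal of the 4 arrays without siRNA minus MEF for the H2A gene (circle) and the H2B gene (square) of 10 neighbouring pairs, joined by a grey line and ordered by the H2B value. H2bc21 and H2bc4 lie above 0 while their partners H2ac20 and H2ac6 lie below it.

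The forms of Mef2c were then compared with each other. GT/M2 and GT/M1 differed little: 2 members, H1f1 and H3c8, were 2-fold higher on GT/M2, where 1.9% of named probe sets were, and 0 were lower, where 1.39% were. The median member difference was 0.44, beside 0.02 over all named probe sets, and 48 of 57 members lay above 0, as did 10178 of 19572 named probe sets. Between GT/M6 and GT/M1 no member was 2-fold apart in either direction, against background shares of 0.644% higher and 0.296% lower, and the median was -0.17. Between GT/M6 and GT/M2, 6 members were 2-fold lower on GT/M6 (H1f1, H1f5, H2ac10, H2ac15, H2bc15 and H3c3), where 1.71% of named probe sets were, and 0 were higher, where 1.84% were. The median was -0.62. H1f1 was the furthest apart, at 7.37 on GT/M6 and 8.99 on GT/M2. With values under 9.33 raised, 3 of these 6 and none of the 2 on GT/M2 against GT/M1 passed.

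The MyoD domain fusion was set against the plain isoform it was built from. On GT/M2TAD 38 of 57 members were 2-fold lower than on GT/M2, where 3.32% of named probe sets were, and 0 were higher, where 2.96% were. The median member difference was -1.36. By type the counts were 3 of 8 for H1, 10 of 13 for H2A, 10 of 15 for H2B, 9 of 10 for H3 and 6 of 11 for H4. H2A had a median of -1.98, H3 -1.63, H2B -1.29, H4 -1.11 and H1 -0.49. H2ac15 had 8.41 on GT/M2TAD and 11.79 on GT/M2, a difference of -3.37. H2ac8 differed by -2.59, with 8.55 on GT/M2TAD and 11.14 on GT/M2. H3c11 followed with 9.80 on GT/M2TAD and 12.32 on GT/M2. The clustered replication-dependent members with a difference above 0 were H2bc4 at 0.22, H1f2 at 0.16 and H2bc21 at 0.75, the last under the background gauge. With values under 9.33 raised, 23 members passed, among them 5 of H2B and 0 of H1, and the median was -0.19 for H2B and -0.70 for H4. Set against the mean of the 3 isoform arrays, the median was -0.98, with 6 members passing for H2B and 0 for H1.

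The siCtrl array was set beside GT/M2TAD because its source name, though not its title, gives that form of Mef2c. On siCtrl 31 of 57 members were 2-fold lower, where 6.39% of named probe sets were, and 0 were higher, where 3.02% were. Counts were uneven by type: 11 of 11 for H4, 9 of 10 for H3, 7 of 15 for H2B, 4 of 13 for H2A and 0 of 8 for H1. The median was -1.56 for H3, -1.53 for H4, -0.95 for H2A, -0.94 for H2B and -0.55 for H1. H4c4 was the furthest apart, at 8.54 on siCtrl and 11.12 on GT/M2TAD. H3c6 had 8.05 on siCtrl and 10.09 on GT/M2TAD, and H2bc7 had 8.37 on siCtrl and 10.43 on GT/M2TAD. The median over the members was -1.06, and over all named probe sets -0.14. After the array medians were aligned the member median was -0.87, and 3 members of H2B and 0 of H2A passed. With values under 9.33 raised 14 members passed, among them 7 of H4 and 1 of H2B, and the H3 median was -0.23.

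Other markers moved in the same comparison. Of the 5 fibroblast markers, 3 were 2-fold higher on siCtrl than on GT/M2TAD (Col1a1 by 2.22, Col1a2 by 3.90 and Col3a1 by 3.69) and Thy1 was lower, at -2.27. Of the 4 cardiac markers, 2 were 2-fold lower on siCtrl, with differences of -2.49 for Myl7 and -3.10 for Ryr2. The transduced gene Tbx5 differed by -1.31. Their part in the histone differences was not tested.

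The array of cells given the siRNA against Ep300 was compared with that of the control siRNA. On siEp300 12 of 57 members were 2-fold higher than on siCtrl, where 1.94% of named probe sets were, and 0 were lower, where 0.388% were. The 12 were H2ac13, H2bc12, H2bc3, H2bc7, H2bc9, H3c13, H3c3, H3c7, H4c11, H4c12, H4c14 and H4c2. The count was 7 with the background gauge as the minimum, 5 after the array medians were aligned, 5 with values under 9.33 raised and 4 after quantile normalization. The median member difference was 0.53, beside 0.14 over all named probe sets, and 50 of 57 members lay above 0, as did 12201 of 19572 named probe sets. With values under 9.33 raised the median member difference was 0. H3c3 was the furthest apart of the 12, at 7.90 on siEp300 and 6.39 on siCtrl, but both values lay under the background gauge and the difference was 0 with values raised. H4c11 had 11.92 on siEp300 and 10.55 on siCtrl, and H4c12 had 11.22 on siEp300 and 9.87 on siCtrl. H2bc7 had 9.63 on siEp300 and 8.37 on siCtrl.

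Since siCtrl was the lowest transduced array for 48 of 57 members, siEp300 was also set against arrays without siRNA. Against GT/M2TAD the median member difference was -0.47 and 7 members were 2-fold apart, all lower on siEp300, where 3.66% of named probe sets were lower and 3.53% higher. Against GT/M2 the median was -1.78 and 43 members were 2-fold apart, again all lower on siEp300, where 7.31% of named probe sets were lower and 6.08% higher. The sign of the median member difference for siEp300 depended on the array it was set against.

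**Figure D4:**
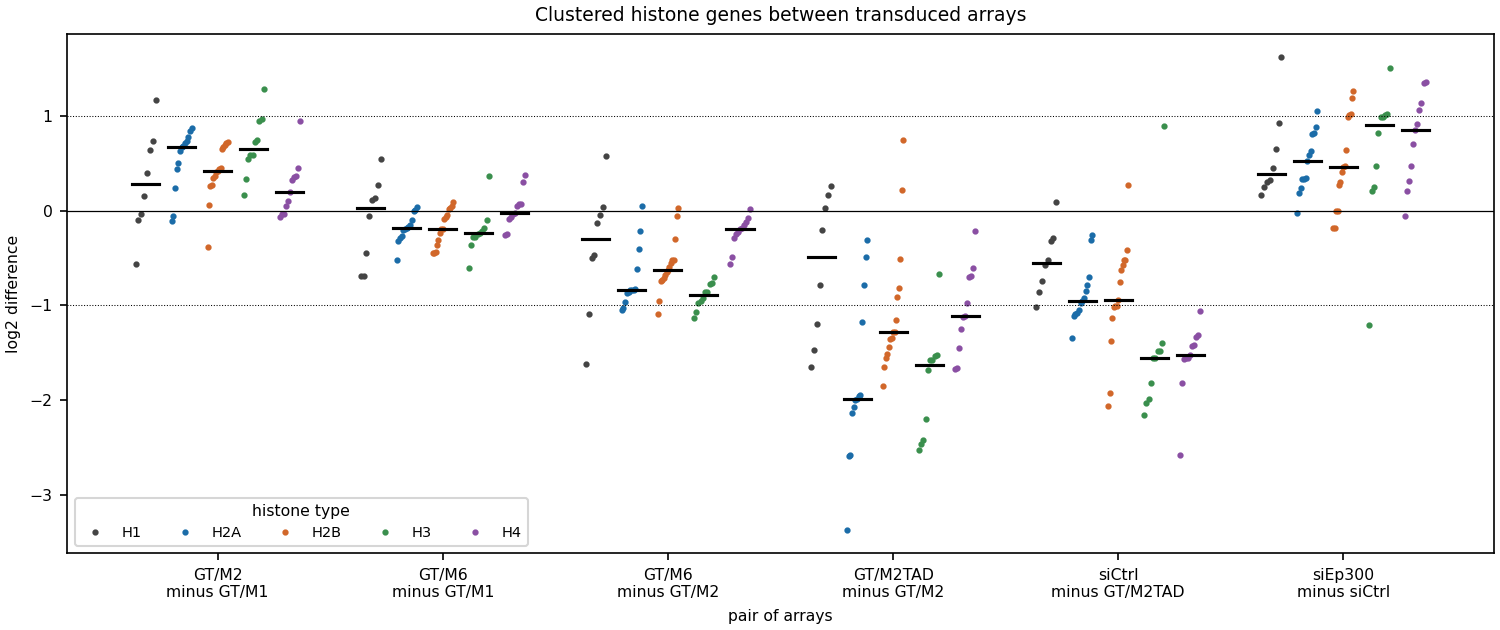
Log2 difference of every member in 6 pairs of transduced arrays, coloured by histone type, with black bars at type medians and dotted lines at 2-fold. Type medians lie under -1 for H2A, H2B, H3 and H4 in GT/M2TAD minus GT/M2 and for H3 and H4 in siCtrl minus GT/M2TAD, and all 5 lie above 0 in siEp300 minus siCtrl.

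Other genes of the same machinery were taken from 4 lists. For S phase and DNA synthesis, 20 of 20 measured genes were 2-fold lower than MEF on all 6 arrays, where 8.33% to 10.8% of named probe sets were. The list medians were -3.72 on siEp300, -3.85 on siCtrl, -3.56 on GT/M2TAD, -2.90 on GT/M6, -2.28 on GT/M2 and -3.03 on GT/M1. Rrm2, which encodes a subunit of ribonucleotide reductase, had 6.71 on siEp300, 7.22 on siCtrl, 7.60 on GT/M2TAD, 8.71 on GT/M6, 9.18 on GT/M2 and 9.13 on GT/M1, against 14.56 on MEF. Mcm5, part of the replicative helicase, had 5.19 on siEp300, 4.60 on siCtrl, 5.90 on GT/M2TAD, 6.92 on GT/M6, 7.76 on GT/M2 and 7.16 on GT/M1, against 11.21 on MEF. The licensing genes Cdt1 and Cdc6 had mean differences of -3.75 and -3.47 over the 4 arrays without siRNA. Cdc6, E2f1, Tk1, Pola1 and Gins2 reached the background gauge on no array. Ccne1, Ccne2, Cdt1, Mcm3, Mcm5, Fen1 and Cdc45 reached it only on MEF. The sizes of the differences of all these genes are uncertain, and so are the list medians that include them.

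Proliferation markers moved in the same direction as the histone genes. Mki67 had 7.85 on siEp300, 7.65 on siCtrl, 8.97 on GT/M2TAD, 10.83 on GT/M6, 11.77 on GT/M2 and 10.87 on GT/M1, against 15.26 on MEF. Top2a had 6.60 on siEp300, 6.38 on siCtrl, 7.33 on GT/M2TAD, 7.87 on GT/M6, 8.08 on GT/M2 and 8.32 on GT/M1, against 11.94 on MEF. Every transduced value of Top2a lay under the background gauge. Their part in the histone values was not tested. Between GT/M2TAD and GT/M2, 11 of the 20 S phase genes were 2-fold lower, against 3.32% of named probe sets. Between siCtrl and GT/M2TAD 4 were, against 6.39%. Between siEp300 and siCtrl 1 was higher, against 1.94%, and 0 were lower, against 0.388%. The list medians in those 3 comparisons were -1.17, -0.52 and 0.24.

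**Figure D5:**
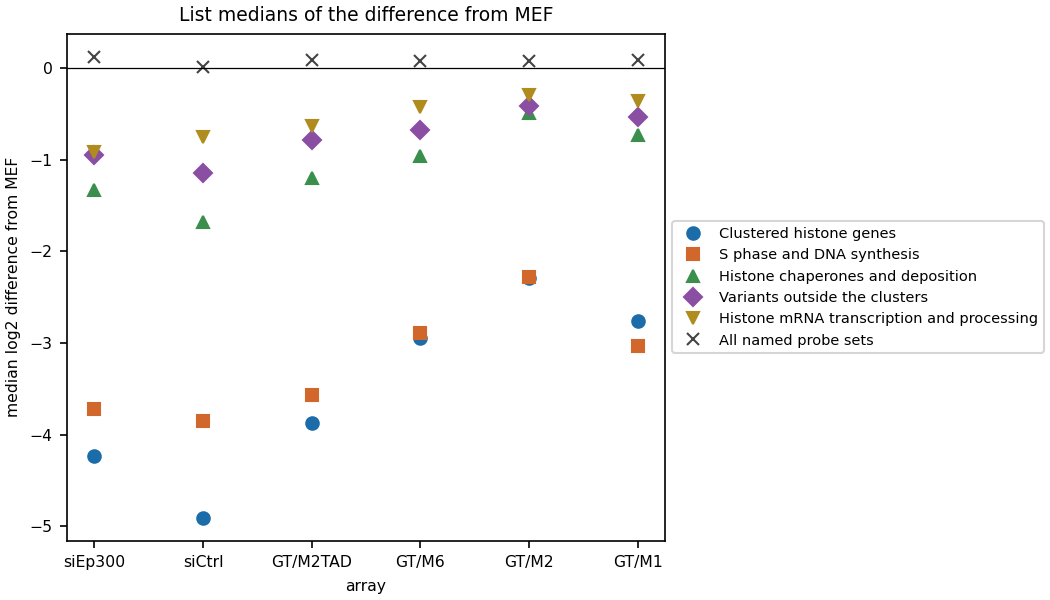
Median log2 difference from MEF on each transduced array for the clustered histone genes, 4 lists of related genes and all named probe sets. The histone and S phase medians lie between -4.91 and -2.28, the other 3 lists between -1.68 and -0.30, and all named probe sets near 0.

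Histone chaperones, which carry new histones to DNA, were lower in part. Of 18 measured genes, 12 were 2-fold lower than MEF on siEp300, 13 on siCtrl, 9 on GT/M2TAD, 8 on GT/M6, 7 on GT/M2 and 8 on GT/M1. Over all named probe sets the shares were 8.33% to 10.8%. Asf1a was 2-fold higher on GT/M6 and GT/M1, where 13.0% and 12.5% of named probe sets were. Asf1b, a chaperone of H3 and H4 in S phase, had 7.96 on siEp300, 7.60 on siCtrl, 8.42 on GT/M2TAD, 9.33 on GT/M6, 9.33 on GT/M2 and 8.82 on GT/M1, against 12.75 on MEF. Hjurp, which deposits the centromere histone Cenpa, Nasp, a chaperone of H1 and H3, and Chaf1b, a subunit of chromatin assembly factor 1, had mean differences of -2.95, -2.82 and -2.63 over the 4 arrays without siRNA. Hjurp, Nasp and Chaf1b reached the background gauge only on MEF. Among genes that deposit the H3.3 variant outside S phase, Hira had a mean difference of -1.11, Atrx of 0.39 and Daxx of 0.49. Daxx lay under the background gauge on every array. Hira, Atrx and Daxx were named after their values had been seen.

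Genes for histone mRNA transcription and processing had the list medians closest to 0, between -0.92 on siEp300 and -0.30 on GT/M2. Of 12 measured genes, 5 were 2-fold lower than MEF on siEp300, siCtrl and GT/M2TAD, 2 on GT/M6 and GT/M2, and 3 on GT/M1. Over all named probe sets the shares were 8.33% to 10.8%, and with 12 genes the smaller counts cannot be set apart from them. Casp8ap2, a partner of NPAT, had 9.12 on siEp300, 8.49 on siCtrl, 9.57 on GT/M2TAD, 9.41 on GT/M6, 9.69 on GT/M2 and 9.37 on GT/M1, against 11.09 on MEF. Slbp and Npat were named for their known roles, with their values already seen. Slbp had 8.21 on siEp300, 7.63 on siCtrl, 8.44 on GT/M2TAD, 9.04 on GT/M6, 9.04 on GT/M2 and 9.06 on GT/M1, against 9.81 on MEF, and was 2-fold lower on the siRNA arrays and GT/M2TAD. Only its MEF and GT/M2 values reached the background gauge. Npat had 10.26 to 10.85 on the transduced arrays, against 10.88 on MEF. The U7 particle genes had mean differences of opposite sign, -1.73 for Lsm11 and 1.41 for Lsm10. Lsm11 reached the background gauge on no array, so its difference is of uncertain size. Lsm10 was 2-fold higher on each of the 4 arrays without siRNA, where 12.5% to 14.0% of named probe sets were.

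Variant histones outside the clusters were mixed. Of 10 measured genes, 5 were 2-fold lower than MEF on siEp300, 6 on siCtrl and 4 on each of the other arrays, where 8.33% to 10.8% of named probe sets were. H2ax, the variant phosphorylated at DNA breaks, had 8.93 on siEp300, 8.02 on siCtrl, 9.15 on GT/M2TAD, 10.32 on GT/M6, 11.29 on GT/M2 and 10.72 on GT/M1, against 14.17 on MEF. H2az1, Macroh2a2 and H3f3b were also 2-fold lower on all 6 arrays, with mean differences of -1.83, -1.75 and -1.35 over the 4 arrays without siRNA. H3f3a, which encodes the replication-independent H3.3, was higher on those 4 arrays and is named after its values were seen. It had 12.07 on siEp300, 11.87 on siCtrl, 12.54 on GT/M2TAD, 12.98 on GT/M6, 13.38 on GT/M2 and 13.03 on GT/M1, against 11.54 on MEF. Cenpa was the only other variant that was 2-fold higher on any array, by 1.02 on GT/M2TAD, where 14.0% of named probe sets were. H3f3a and H3f3b encode the same protein, and their signals lay on opposite sides of MEF on all 6 transduced arrays.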

How the data were processed

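Total RNA of the 7 samples, each with an integrity number above 7 and 100 ng in labelling, was hybridised to Clariom S mouse arrays, per the labels' protocols. The authors deposited log2 signals, which per the submitters' processing notes came from Affymetrix Expression Console 1.4 and per the series text from its SST-RMA method. Its settings, and the genome build behind the probe sets, are not given in the sources used here. Such normalization can mask a change common to most probe sets, and signals near background understate a difference.

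Of 28846 probe sets, 19572 had a single gene symbol in the platform annotation, and the 57 members kept their symbols when matched to the RefSeq table by Entrez identifier. With 1 array per group the number of arrays limits the precision, and probe sets were counted by size: a log2 difference of at least 1, with the higher signal at or above its array's median. The rule was also run on simulated data with an assumed noise and changes larger than its limit. That run cannot tell its error rate on these arrays. No spread between samples could be estimated. The 12 comparisons were the 6 transduced arrays against MEF and 6 pairs of transduced arrays. Alternatives were aligned array medians, quantile normalization, other minimum signals, 1.5-fold, 1 probe set per gene, other comparator arrays, and, added after seeing the data, values raised to 9.33, H3c15 left out and replication-dependent members alone.

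The members, gene lists and motifs were chosen with earlier results of these data known. Named genes were, for each type, the member with the highest mean signal and those with the lowest and highest mean difference from MEF, every H1 member, H2ac1, H2bc1, members 2-fold higher than MEF or 2-fold apart between transduced arrays (where many, a few with values), and at most 4 genes per list. Some of those named outside this rule are marked where they occur. H2ac20, H2bc21, H2bc23, H3c1, Asf1a and Cenpa were also named outside it, as were the S phase genes named only for their background. Listed genes without a value, such as Pou2f1, Cstf2, Ssrp1, Mcm7 and Pdgfra, were not analysed here. Python 3.11.15, numpy 2.4.6, pandas 2.3.3 and matplotlib 3.10.9 were used.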

Additional observations from a re-analysis of the deposited data

How the results depend on the processing

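No paired analysis was possible because each group has 1 array. No count or median of all members against MEF changed its direction or moved by over 1.5 times under any alternative run. Over all comparisons, 97 of 111 counts of members stayed within 1.5 times. Of 111 medians, 104 kept their side of the 2-fold limit without changing sign. A median under the limit that fell to 0 was counted among these, as with raised values for siEp300 minus siCtrl and GT/M6 minus GT/M1. For siEp300 minus siCtrl the count of 12 became 5 with aligned medians, 4 with quantile normalization, 7 with the negative-control percentile as the minimum, 25 at 1.5-fold, 5 with values raised to that percentile, 7 against GT/M2TAD (median -0.47) and 43 against GT/M2 (median -1.78). Of the 12 members called higher, 9 lay below 0 against GT/M2TAD and 12 against GT/M2, and no called member changed sign under any other alternative run. The siCtrl minus GT/M2TAD median of -1.06 became -0.87 with aligned medians, -0.84 with quantile normalization and 0 with raised values, where 14 members passed in place of 31. At 1.5-fold the counts were 23 for GT/M2 minus GT/M1, 2 for GT/M6 minus GT/M1 and 29 for GT/M6 minus GT/M2. With raised values they were 0 for GT/M2 minus GT/M1, 3 for GT/M6 minus GT/M2 and 23 for GT/M2TAD minus GT/M2, whose median became -0.69, and -0.98 against the mean of the 3 isoform arrays. Type levels also moved with the summary. The H1 median of replication-dependent members alone was 6.59 on siEp300, 6.04 on siCtrl, 6.67 on GT/M2TAD, 7.06 on GT/M6, 8.10 on GT/M2, 7.15 on GT/M1 and 9.87 on MEF, and for H2A it was 10.21 on siEp300. Means in place of medians were 7.30 on MEF for H1, and 9.64 on GT/M2TAD, 10.72 on GT/M6, 11.44 on GT/M2, 10.90 on GT/M1 and 13.66 on MEF for H2A. They were 11.32 on MEF for H2B, 9.93 on GT/M6, 10.83 on GT/M2, 10.14 on GT/M1 and 12.92 on MEF for H3, and 11.27 on GT/M6 and 11.50 on GT/M2 for H4. Raised values shrink, by construction, the differences that reach under the highest percentile of any array, and the cause of the other changes was not tested. Background limits the lower side of the differences, as 20 of 57 members reached the percentile on all 7 arrays.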
